A study of Mus musculus with 23 samples.

Results

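Ubiquitin ligases are the enzymes that choose which proteins are tagged with ubiquitin and sent to the proteasome. The expression of 10 ubiquitin ligase genes of muscle was examined in mouse quadriceps, namely Trim63, Fbxo32, Fbxo30, Fbxo21, Fbxo31, Fbxo40, Trim32, Trim54, Asb2 and Nedd4. They were chosen as a list of symbols, with no threshold on measured values but with earlier results of these data known. The symbols were matched to the Ensembl gene IDs of the table of read counts, which holds 55573 IDs. All 10 had enough reads to be tested, among 13049 genes tested in total. Quadriceps, a thigh muscle made mostly of fast fibers, came from 23 C57Bl6 mice (C57BL/6J in the study's methods) aged 8-10 weeks. Male mice carried a slow-release pellet under the skin with vehicle (cholesterol, n = 6) or with 50 mg corticosterone in cholesterol (n = 6), and female mice the same vehicle (n = 6) or corticosterone (n = 5) pellets. All mice were killed after 14 days and a fast of 5 hours, so that fasting is shared by the vehicle groups. Single mice go by their label, F or M for the sex and then a number.

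A ubiquitin chain is built in 3 steps. An E1 enzyme activates ubiquitin, an E2 enzyme carries it, and an E3 ligase brings the loaded E2 to the substrate. Some ligases are a single protein with a RING or HECT domain, as in the TRIM family and Nedd4, whereas F-box and ASB proteins are the substrate-binding parts of larger complexes built on a cullin scaffold. In skeletal muscle, Trim63 (MuRF1) and Fbxo32 (atrogin-1, also called MAFbx) are known as genes that rise in wasting muscle, during fasting, denervation and glucocorticoid excess. The glucocorticoid receptor and the FoxO transcription factors are known to act on them, FoxO proteins being held back by insulin signalling through Akt.

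The promoter of Trim63 is shown here because the known glucocorticoid receptor and FoxO motifs stand next to each other in it, and those of Fbxo31 and Trim54 because both genes rose in male mice together with Trim63. The bases are the 250 before the RefSeq transcription start (GRCm38.p6), written 5′ to 3′ along the gene. Capitals mark the full glucocorticoid receptor element, its hexamer TGTTCT and the FoxO motif TGTTTAC, searched on both strands. In Trim54 the hexamer lies on the opposite strand and reads AGAACA.
Trim63, chr4:134314870-134315119, plus strand: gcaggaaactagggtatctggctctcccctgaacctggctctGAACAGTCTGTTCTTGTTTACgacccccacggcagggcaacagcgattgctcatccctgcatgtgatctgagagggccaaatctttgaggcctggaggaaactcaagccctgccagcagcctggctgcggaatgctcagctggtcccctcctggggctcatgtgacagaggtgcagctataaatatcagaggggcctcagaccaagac
Fbxo31, chr8:121578807-121579056, minus strand: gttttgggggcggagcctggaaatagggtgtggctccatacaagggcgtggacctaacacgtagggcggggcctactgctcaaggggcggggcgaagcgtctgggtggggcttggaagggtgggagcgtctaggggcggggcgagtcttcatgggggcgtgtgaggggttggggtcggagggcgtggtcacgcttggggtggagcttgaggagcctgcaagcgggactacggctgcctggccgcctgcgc
Trim54, chr5:31116362-31116611, plus strand: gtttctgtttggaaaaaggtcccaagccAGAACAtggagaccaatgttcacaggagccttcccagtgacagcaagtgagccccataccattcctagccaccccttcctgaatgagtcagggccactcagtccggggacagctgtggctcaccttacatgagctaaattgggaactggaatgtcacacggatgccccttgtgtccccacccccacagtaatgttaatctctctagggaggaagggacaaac

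In the Trim63 promoter, the full element GAACAGTCTGTTC began 208 bases before the start. The hexamer overlapped its end by 5 bases, and the FoxO motif TGTTTAC followed directly, beginning 194 bases before the start. The full element was searched as GNACANNNTGTNC, in windows of 300 bases that also take in the first 50 transcribed bases. Of 32851 RefSeq promoter windows, 0.475% held it, 19% held the hexamer and 3.65% held the FoxO motif, on either strand. RefSeq windows were at hand for 9 of the 10 ligase genes, all but Fbxo32, and made up 12 windows in total. Trim63 was the gene with the full element and the gene with the FoxO motif among them. The hexamer was in 4 of the 12 windows, at Trim63, Trim54, Nedd4 and Fbxo40, and the Fbxo31 window held none of these letters. The E-box CANNTG, the motif bound by myogenic factors, was in 8 of the 12 windows and in 72.3% of all windows. These matches describe letters, and no binding was measured.

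Between 20904150 and 21984477 reads per mouse fell on genes, and the 10 ligase genes had at least 178 counts in every mouse. The 8 defining skeletal muscle markers, such as Acta1 and Ckm, summed to 93479 to 269090 CPM (counts scaled to library size) per mouse, so that the muscle label held in all groups. Mouse F10, a female with corticosterone, had the lowest sum of muscle markers and 2545 CPM of 10 liver transcripts (Alb and others), which were at 19.7 to 334 CPM in 18 of the mice and at 1139 to 2573 CPM in F6, M8, M9 and M12. Adipocyte transcripts (8 genes, such as Adipoq and Plin1) summed to 51.3 to 779 CPM in vehicle-treated females and to 70.4 to 4744 CPM in corticosterone-treated females, with F2, F6 and F10 at 2239 CPM or more. In males, they summed to 37.0 to 502 CPM with vehicle and 99.1 to 591 CPM with corticosterone. Transcripts of slow fibers ranged from 57.9 to 6439 CPM across the mice. The counts of called genes, and the values of some single genes, are given with and without these mice.

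In vehicle-treated muscle, the 10 ligases differed widely in level. Levels were compared between genes as CPM per kb of exon. In vehicle-treated males, Trim54 (MuRF3, a relative of Trim63 that binds microtubules and the Z-disc) stood at 240 ± 18.7 CPM per kb (SD, n = 6), above Asb2 at 214 ± 66.0 and Trim63 at 150 ± 16.7. Fbxo32 at 87.8 ± 29.3 and Fbxo40 at 86.5 ± 5.91 CPM per kb came next, followed by Nedd4 at 38.3 ± 2.06 and Fbxo31 at 25 ± 2.30. Trim32, Fbxo21 and Fbxo30 lay at the low end, at 3.75 ± 0.659, 3.43 ± 0.344 and 3.30 ± 0.337 CPM per kb. In this order, the means of Trim54 and Asb2, of Asb2 and Trim63, of Fbxo32 and Fbxo40 and of the neighbours among the last 3 genes were closer to each other than the larger of their SDs. In corticosterone-treated males, Trim63 was the highest of the 10, at 588 ± 195 CPM per kb, followed by Trim54 at 360 ± 45.8 and Fbxo32 at 260 ± 74.0. In corticosterone-treated females (n = 5), Trim63 at 204 ± 109 CPM per kb did not separate beyond its SD from Trim54 at 177 ± 36.0 or Asb2 at 139 ± 28.5. The means of Trim54 and Asb2 were apart by slightly more than the larger of their SDs.

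**Figure D1:**
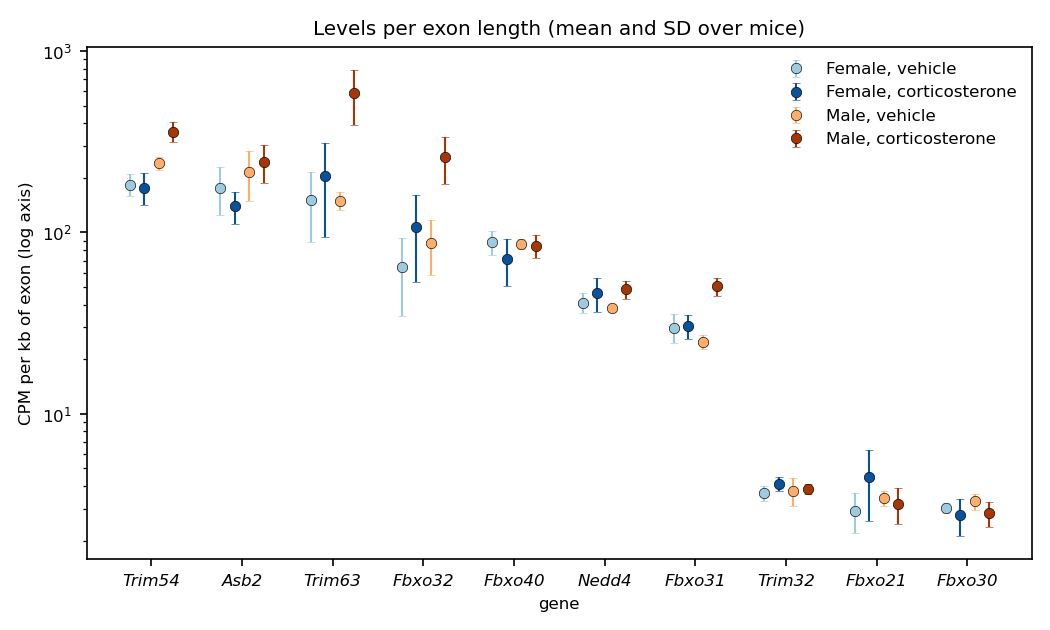
Level of each ligase gene as CPM per kb of exon on a log axis, with the mean (point) and SD (bar) over the mice of each group, ordered by the level in vehicle-treated males. Trim54, Asb2 and Trim63 lie near the top and Trim32, Fbxo21 and Fbxo30 near 3 CPM per kb, and in corticosterone-treated males Trim63 stands highest.

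Corticosterone treatment raised 4 of the 10 ligase genes in male mice, and lowered none. Trim63 rose 3.93-fold, Fbxo32 rose 2.96-fold, Fbxo31 rose 2.02-fold and Trim54 rose 1.497-fold. In all 4, the corticosterone-treated males and the vehicle-treated males did not overlap. Differences were called at an adjusted p under 0.01 in the quasi-likelihood test of edgeR, with the Benjamini-Hochberg adjustment over all 13049 genes. Of all genes tested, 26.3% were called in males, 13.2% as higher and 13.1% as lower, and 21.9% had groups that did not overlap. The median log2 fold change (log2FC) of the 10 ligase genes was 0.27, beside -0.02 over all genes.

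Trim63 encodes a RING ligase of the sarcomere that tags thick filament proteins. It lies on chromosome 4 (plus strand, 134315120 to 134329629, GRCm38). In vehicle-treated males, Trim63 ranged from 361 CPM to 493.4 CPM, with a median of 434 CPM. In corticosterone-treated males, it ranged from 886 CPM (M12) to 2270 CPM (M8), with a median of 1782 CPM. Every treated male thus lay above every vehicle-treated male, while the SD grew from 47.5 CPM to 555 CPM. The log2FC was 1.97 ± 0.31 (SE), with an adjusted p of 3.53e-05 in edgeR.

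Fbxo32 encodes the F-box protein atrogin-1, whose known substrates include the translation factor eIF3f and the myogenic factor MyoD. It lies on the minus strand of chromosome 15 (58175879 to 58214932). In vehicle-treated males, Fbxo32 ranged from 460 CPM to 964 CPM, with a median of 512 CPM. In corticosterone-treated males, it ranged from 1268 CPM (M12) to 2618 CPM (M8), with a median of 1773 CPM. The lowest and highest treated males were the same as for Trim63, and the groups were again apart. The log2FC was 1.57 ± 0.33 (SE), with an adjusted p of 0.000789 in edgeR.

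Fbxo31 encodes an F-box protein known for the turnover of cyclin D1. It lies on the minus strand of chromosome 8 (121549440 to 121578806). With vehicle, males ranged from 117 CPM to 154 CPM, with a median of 136 CPM. With corticosterone, they ranged from 235 CPM to 319 CPM, with a median of 283 CPM. Its spread was the narrowest among the 4 raised genes, with an SD of 32.1 CPM around a mean of 276 CPM in treated males. The log2FC was 1.01 ± 0.12 (SE), with an adjusted p of 1.28e-06 in edgeR, smaller than those of Trim63 and Fbxo32, whose changes were larger.

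Trim54 lies on the plus strand of chromosome 5 (31116712 to 31137630). With vehicle, males ranged from 314 CPM to 382 CPM, with a median of 343 CPM. With corticosterone, they ranged from 394 CPM (M12) to 571 CPM (M4), with a median of 540 CPM. The groups were apart by the narrow margin between M9 with vehicle, the highest of its group, and M12. The log2FC was 0.58 ± 0.12 (SE), with an adjusted p of 0.000685 in edgeR.

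The other 6 ligase genes did not pass the threshold in males. Nedd4, a HECT ligase known to be raised in unloaded muscle, was nearest to it, with a log2FC of 0.34 ± 0.11 (SE) and an adjusted p of 0.0218 in edgeR. It passed as the fifth gene in DESeq2 (adjusted p = 0.00670), in limma-voom (0.00526) and with each sex fitted alone (0.00436). All 6 treated males lay above the mean of the vehicle group for Nedd4 (443 CPM to 620 CPM, against 393 CPM to 444 CPM), and the groups overlapped narrowly. Asb2, which targets filamins and desmin through a cullin complex, had a log2FC of 0.20 ± 0.21, and its mice ranged from 483 CPM to 1092 CPM with vehicle and from 602 CPM to 1145 CPM with corticosterone. Fbxo40, a muscle F-box protein that binds the insulin signalling protein Irs1, had a log2FC of -0.038 ± 0.14. For Trim32, a ligase of desmin filaments that is mutated in a limb-girdle muscular dystrophy, the log2FC was 0.043 ± 0.098. Fbxo21 (SMART) and Fbxo30 (MUSA1) are F-box genes described as FoxO-dependent and as needed for full atrophy after denervation. Their log2FC values were -0.11 ± 0.21 and -0.22 ± 0.12, below 0 unlike those of Trim63 and Fbxo32.

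**Figure D2:**
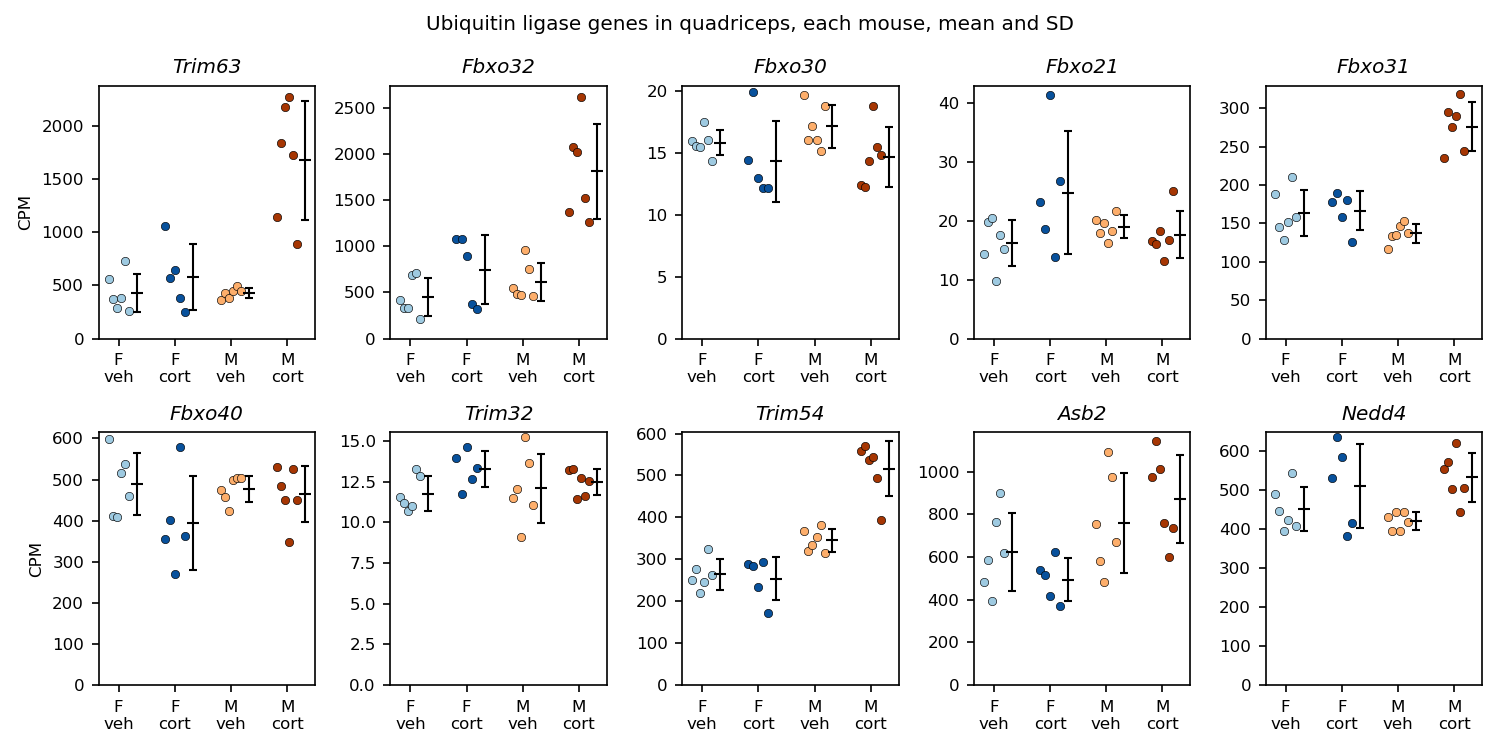
CPM of each of the 10 ligase genes in each of the 23 mice (points) with the mean and SD of each group (F veh n = 6, F cort n = 5, M veh n = 6, M cort n = 6), each panel starting at 0. For Trim63, Fbxo32, Fbxo31 and Trim54, every corticosterone-treated male lies above every vehicle-treated male, and in females the groups overlap in all 10 panels.

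Other transcripts moved with the male groups. Summed fibroblast markers (6 genes, collagens among them) were at 903 to 1370 CPM in vehicle-treated males and 328 to 493.2 CPM in treated males, and summed markers of denervated muscle (8 genes) were at 55.7 to 69.9 CPM and 99.9 to 138 CPM. Most of the latter sum came from Gadd45a, with medians of 20.8 CPM and 41.6 CPM, and Musk, with 16.9 CPM and 39.8 CPM. Myog, at a lower level, had medians of 2.87 CPM and 12.4 CPM without overlap of the groups. Ncam1 (4.64 CPM and 5.82 CPM) and the acetylcholine receptor gene Chrna1 (15.1 CPM and 17.6 CPM) overlapped between the groups. The medians of Chrnd and Runx1 were lower with corticosterone. The part of these transcripts in the change of the ligases was not tested. In these bulk samples, more cells of a type and more RNA per cell cannot be told apart. The 4 calls held in males in all alternatives that were run, the log2FC of Trim63 lying between 1.87 and 2.11 and that of Fbxo31 between 0.97 and 1.09.

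In female mice, none of the 10 ligase genes passed the threshold upon corticosterone treatment. The values of Trim63 and Fbxo32 differed widely between treated females, and those of Fbxo31 and Trim54 stayed close to the vehicle group. In females, 13.4% of all genes were called, 7.40% as higher, and 7.72% had groups that did not overlap, whereas 0 of the 10 ligase genes did. At an unadjusted p under 0.05, edgeR counted 3 of the 10, Fbxo21, Fbxo32 and Fbxo40, where 38.6% of all genes were counted. DESeq2 and limma-voom at an adjusted p under 0.01 counted 0 of the 10, where they called 2458 and 2454 of all 13049 genes. The median log2FC of the 10 genes was 0.10, beside 0.04 over all genes.

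Trim63 ranged from 260 CPM to 727 CPM in vehicle-treated females, with a median of 372 CPM. The 5 treated females were at 1059 CPM (F2), 639 CPM (F6), 567.6 CPM (F4), 380 CPM (F8) and 247 CPM (F10). F2 alone lay above all vehicle-treated females, and F10 lay below all of them. The log2FC was 0.43 ± 0.31 (SE), with an adjusted p of 0.321 in edgeR. Without F10, the log2FC was 0.60 ± 0.29 (adjusted p = 0.154), and without F2 it was 0.094 ± 0.29 (adjusted p = 0.857).

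Fbxo32 ranged from 209 CPM to 710 CPM in vehicle-treated females, with a median of 377 CPM. The treated females were at 1075 CPM (F2), 1075 CPM (F4), 897 CPM (F6), 377 CPM (F8) and 317 CPM (F10). Of these, 3 lay above all vehicle-treated females and the others lay within their range. The log2FC was 0.74 ± 0.34 (SE), with an adjusted p of 0.110 in edgeR. Without F10, it was 0.91 ± 0.33 (adjusted p = 0.0530).

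Fbxo31 and Trim54 did not follow this spread. Fbxo31 ranged from 129 CPM to 210 CPM in vehicle-treated females and was at 189 CPM (F4), 180 CPM (F8), 178 CPM (F2), 159 CPM (F6) and 126 CPM (F10) with corticosterone. Its log2FC was 0.023 ± 0.12 (SE), with an adjusted p of 0.913 in edgeR. Trim54 ranged from 221 CPM to 326 CPM with vehicle and was at 293 CPM (F8), 288 CPM (F2), 284 CPM (F4), 233 CPM (F6) and 172 CPM (F10) with corticosterone. Its log2FC was -0.055 ± 0.13 (SE), with an adjusted p of 0.788 in edgeR. F10 was the lowest of the 5 treated females for Trim63, Fbxo32, Fbxo31, Trim54 and Asb2. The part of its low muscle markers in these values was not tested beyond leaving the mouse out.

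Fbxo21 had the smallest p-value of the 10 in females, with a log2FC of 0.61 ± 0.22 (SE) and an adjusted p of 0.0392 in edgeR. It ranged from 9.82 CPM to 20.5 CPM with vehicle and was at 41.3 CPM (F6), 26.8 CPM (F10), 23.3 CPM (F2), 18.6 CPM (F4) and 13.8 CPM (F8) with corticosterone. The 3 females above all vehicle-treated females were F6, F10 and F2, with 4744, 2239 and 2318 CPM of adipocyte transcripts, against 623 CPM in F4 and 70.4 CPM in F8. With the adipocyte score as a covariate, the log2FC of Fbxo21 was 0.15 ± 0.17 (adjusted p = 0.624 in edgeR), and without F2, F6 and F10 it was -0.013 ± 0.23. That removal takes out the 3 highest treated values and leaves F4 and F8, so a lower log2FC follows from it. The adipocyte sum was itself higher in treated females (median 2239 CPM, against 275 CPM with vehicle). Its part in the change of Fbxo21 was not tested and cannot be told apart from treatment here.

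For the remaining genes, Fbxo40 had a log2FC of -0.31 ± 0.15 (adjusted p = 0.129 in edgeR) and ranged from 271 CPM (F6) to 579 CPM (F8) in treated females, against 410 CPM to 598 CPM with vehicle. Leaving out F8 alone brought Fbxo40 (log2FC -0.49, adjusted p = 0.00709) and Fbxo21 (log2FC 0.76, adjusted p = 0.00690) past the threshold. F8 was the highest treated female for Fbxo40 and the lowest for Fbxo21, so larger changes follow from its removal. Calls over all 13049 genes in females rose from 1748 to 2359 in that fit. Asb2 had a log2FC of -0.34 ± 0.23, with 369 CPM to 624.8 CPM in treated females and 395 CPM to 898 CPM with vehicle. Nedd4 and Trim32 both had a log2FC of 0.18, with SEs of 0.12 and 0.10, and Fbxo30 had -0.14 ± 0.12. Of these, Trim32 was above the vehicle mean in all 5 treated females (11.8 CPM to 14.6 CPM).

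The response of male mice was then compared with that of female mice, as the male minus the female log2FC. Fbxo31 was the ligase gene whose response differed between the sexes, with a difference of 0.99 ± 0.17 (SE) on the log2 scale and an adjusted p of 0.00607 in edgeR. Of all genes tested, 0.690% were called in this comparison. For Trim63, the difference was 1.54 ± 0.43 (adjusted p = 0.0279), and for Trim54 it was 0.64 ± 0.18 (adjusted p = 0.0265), so that both missed the threshold in edgeR and passed it in DESeq2 (adjusted p = 0.00457 and 0.00526). Over all genes, DESeq2 called 896 in this comparison and edgeR 90. Fbxo32 had a difference of 0.83 ± 0.47 (adjusted p = 0.231 in edgeR). A larger response of Fbxo32 in males than in females was therefore not shown, although it was called in males and not in females. Fbxo21 differed in the other direction, by -0.72 ± 0.30 (adjusted p = 0.104), and the other 5 genes had adjusted p-values of 0.238 to 0.764 in edgeR.

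The call of Fbxo31 was near the threshold. It was lost without 11 of the 23 mice, each left out alone, with adjusted p-values of up to 0.0132, while the difference stayed between 0.91 and 1.05. With the adipocyte score as a covariate, the difference was 0.89 ± 0.17 (adjusted p = 0.0217), and without F2, F6 and F10 it was 0.86 ± 0.19 (adjusted p = 0.0485).

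**Figure D3:**
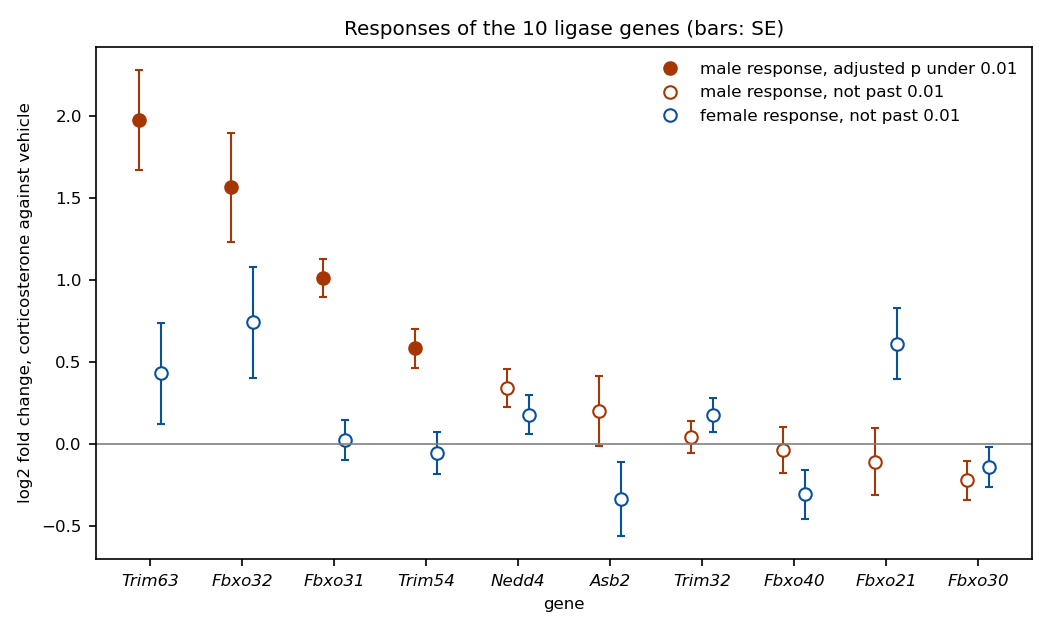
Log2 fold change of corticosterone against vehicle for each ligase gene in males and in females, with SE bars. Filled points passed an adjusted p of 0.01 in edgeR, which holds for Trim63, Fbxo32, Fbxo31 and Trim54 in males and for no gene in females, and the SE bars of both sexes are far apart for Trim63, Fbxo31 and Trim54.

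Male and female mice were also compared at the same treatment. Among vehicle-treated mice, 0 of the 10 ligase genes differed between the sexes in edgeR, where 0.958% of all genes were called. At an unadjusted p under 0.05, edgeR counted 2, Trim54, higher in males by 0.39 ± 0.12 (SE; adjusted p = 0.107), and Fbxo31, lower in males by a log2FC of -0.26 ± 0.12 (adjusted p = 0.331), and 13.2% of all genes were counted at this p. DESeq2 and limma-voom also called 0 of the 10, where they called 284 and 187 of all 13049 genes.

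After corticosterone treatment, 5 ligase genes were higher in males than in females, namely Trim63, Fbxo32, Trim54, Asb2 and Fbxo31. Of all genes, 23.3% were called in this comparison, 9.31% as higher in males, and 12.4% had groups that did not overlap. For Trim54, treated males were at 394 CPM to 571 CPM and treated females at 172 CPM to 293 CPM, and the log2FC was 1.02 ± 0.13 (SE; adjusted p = 2.8e-05 in edgeR). For Fbxo31, treated males were at 235 CPM to 319 CPM and treated females at 126 CPM to 189 CPM, with a log2FC of 0.73 ± 0.12 (adjusted p = 0.000237). These 2 genes and Fbxo32 (log2FC 1.28 ± 0.35, adjusted p = 0.00693) had groups that did not overlap. Trim63 had a log2FC of 1.53 ± 0.32 (adjusted p = 0.00111), with F2 above M12, the lowest treated male. Asb2, which passed in neither sex upon treatment, was higher in treated males by 0.82 ± 0.23 (adjusted p = 0.0076), and its groups overlapped.

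These counts depended on which mice were included. The number of ligase genes higher in treated males was 3 without F6, without F10, without M4 or without M6. It was also 3 without M8 and F10, and with either the adipocyte or the slow fiber score as a covariate. It was 2 without F2, F6 and F10, and 1 without F6, F10, M8, M9 and M12. The first of these removals leaves F4 and F8 as the treated females, and the second F2, F4 and F8. Calls over all 13049 genes fell likewise, from 3043 to 206 and to 290. They were 1399 to 2553 in the fits that called 3 ligase genes. Whether male and female samples were prepared together is not given in the sources used here, so that a preparation difference and a sex difference cannot be told apart in the comparisons of males with females.

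Among mice of the same group, some ligases varied together. Deviations from the group mean in log2 CPM were correlated over the 23 mice for all 45 pairs of the 10 genes, with p-values from 100000 permutations within groups and Benjamini-Hochberg adjustment over the pairs. Trim63 and Fbxo32 had the strongest relation, with a Pearson's r of 0.788 (p = 0.00019 by permutation, adjusted 0.0054) and a Spearman's rho of 0.748 (p = 0.00058, adjusted 0.0131). It remained at an r of 0.721 without F10 and F2, the mice farthest from the median. Trim63 and Fbxo31 followed, with an r of 0.731 (p = 0.00089 by permutation, adjusted 0.0134) and a rho of 0.715 (p = 0.00135, adjusted 0.0203), and an r of 0.693 without F10 and F2. In treated males, M8 was high and M12 low in both Trim63 and Fbxo32.

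Trim54 and Asb2 formed another pair, with an r of 0.661 (p = 0.00024 by permutation, adjusted 0.0054) and a rho of 0.707 (p = 0.00032, adjusted 0.0131), and an r of 0.706 without F10 and M12. Fbxo31 and Trim54 had an r of 0.658 (p = 0.00437 by permutation, adjusted 0.0492) and a rho of 0.550 (p = 0.0140, adjusted 0.126). That relation fell to an r of 0.445 without F10 and F9. Over all pairs, r ranged from -0.586 to 0.788 with a median of 0.219, and 3 of 45 pairs passed an adjusted p of 0.05 by both measures. The lowest r was that of Fbxo21 and Fbxo40, and it rested on F6 and F8, since r was -0.205 without them. The mice share differences in tissue makeup as well as in ligase expression, and the part of these in the relations was not tested.

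**Figure D4:**
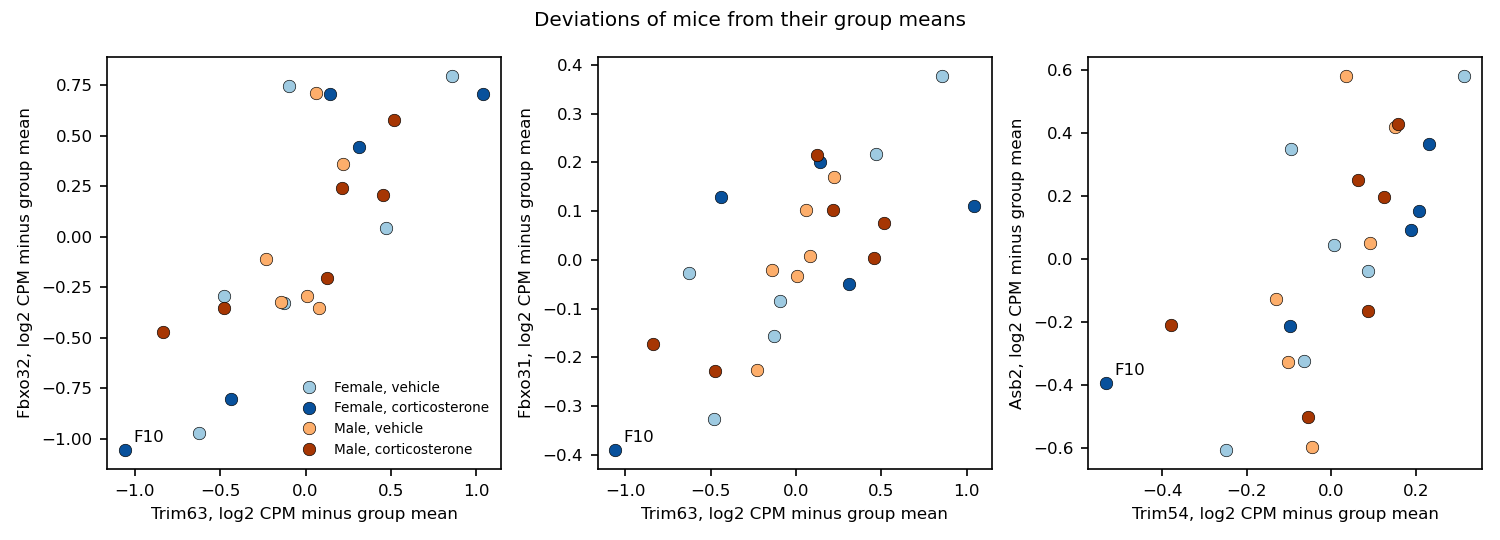
Deviation of each mouse from the mean of its group in log2 CPM, for the 3 pairs of ligase genes that passed an adjusted p of 0.05 by both Pearson's r and Spearman's rho (23 mice, colored by group). F10 lies at the lower left of all 3 panels, and r without the outermost mice was 0.721, 0.693 and 0.706.

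Over all 23 mice, group differences included, the genes whose log2 CPM was most like that of Trim63 were Emc3 (r = 0.938), Sympk (r = 0.935), Smad4 (r = 0.932), Slu7 (r = 0.932) and Myo18b (r = 0.923). For Fbxo32, Trim63 itself ranked first (r = 0.918), before Ttll7 (r = 0.917), Tmpo (r = 0.912), Kpna4 (r = 0.905) and Zfand3 (r = 0.901). These values describe likeness over 23 mice and carry no test.

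The other genes of the pathway were described from 7 lists with 145 genes, of which 143 were tested (not Fbxl21 and Rnf207). In males, 30 were called as higher and 11 as lower, and in females 11 as higher and 14 as lower. These were 28.7% and 17.5% of the pathway genes tested, close to the 26.3% and 13.4% of all genes. The difference between the responses of the sexes was called for 3 pathway genes (2.10%), beside 0.690% of all genes. A gene named below for a single sex was short of the threshold in the other, which does not show a difference. By list, the share called in males was 33.3% for ubiquitin and E1, 26.1% for E2 enzymes, 10% for the cullin scaffold, 28.9% for other muscle ligases, 20% for deubiquitinases, 55% for regulators and 28.6% for substrates. In females, it was 0%, 17.4%, 5%, 23.7%, 13.3%, 35% and 9.52% in the same order. Both directions occurred in other muscle ligases. Of 38 such genes, 4 rose and 7 fell in males, and 1 rose and 8 fell in females. Cblb, a ligase of insulin signalling proteins, rose in both sexes (log2FC 0.88 ± 0.14 in males and 0.55 ± 0.14 in females), and Asb11 rose in males (1.09 ± 0.14). Asb10 fell in both sexes, by a log2FC of -1.40 ± 0.17 and -0.97 ± 0.18, as did Fbxl22 (-1.34 ± 0.34 and -1.31 ± 0.34), and Kbtbd13 fell in males (-1.11 ± 0.22). The other genes that rose in males, named after their values were seen, were Huwe1 (0.39 ± 0.09) and Ubr2 (0.39 ± 0.10). Of the other genes that fell, named likewise, Fbxw7 (-0.66 ± 0.14 and -0.87 ± 0.14), Asb14 (-0.66 ± 0.13 and -0.84 ± 0.14) and Asb8 (-0.53 ± 0.10 and -0.59 ± 0.11) did so in males and in females. Smurf1, also named likewise, fell in males (-0.40 ± 0.11) and had 0.045 ± 0.11 in females. Kbtbd12 (-0.74 ± 0.14) and Asb16 (-0.47 ± 0.12) fell in females. In males, Kbtbd12 had -0.36 ± 0.13 (adjusted p = 0.0303 in edgeR) and Asb16 had -0.077 ± 0.12. Trim55 (MuRF2), a close relative of Trim63 and Trim54, fell in females (-0.75 ± 0.15, adjusted p = 0.00126 in edgeR) and had a log2FC of -0.43 ± 0.14 in males (adjusted p = 0.0219). Fbxo25, the closest relative of Fbxo32, had 0.17 ± 0.08 in males and -0.12 ± 0.08 in females, and the chain-extending ligase gene Ube4b had -0.081 ± 0.087 and 0.023 ± 0.091, all short of the threshold.

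Of 20 known regulators of ligase genes, 10 rose and 1 fell in males, and 5 rose and 2 fell in females. Foxo1 rose from 16.9 CPM to 107 CPM in males (log2FC 2.66 ± 0.23) and from 20 CPM to 65.0 CPM in females (1.70 ± 0.23). Foxo3 rose by 1.54 ± 0.12 in males and 0.52 ± 0.13 in females, a difference that passed the threshold (adjusted p = 0.00607 in edgeR). Smad4, named after its values were seen, was the other regulator whose difference passed (0.66 ± 0.08 in males and 0.067 ± 0.084 in females, adjusted p = 0.00830 in edgeR). Foxo4 rose in males (0.56 ± 0.11) and had -0.15 ± 0.11 in females, and Klf15, a glucocorticoid receptor target that acts on both Trim63 and Fbxo32, rose in males (1.18 ± 0.14) and had 0.34 ± 0.14 in females. For Foxo1, Foxo4 and Klf15, the difference between the sexes had adjusted p-values of 0.0506, 0.0117 and 0.0160 in edgeR. Cebpd (3.31 ± 0.50 and 2.04 ± 0.50), Ddit4, a brake on mTORC1 (3.37 ± 0.55 and 2.24 ± 0.54), and Foxo1 had the largest log2FC values of the list, and Myog rose in males (1.76 ± 0.28). Also named after their values were seen, Akt2 rose in males (0.71 ± 0.13) and had 0.29 ± 0.13 in females, and Cebpb rose in both sexes (1.16 ± 0.18 and 0.77 ± 0.19). The 2 regulators that fell in females, named likewise, were Smad3 (-1.15 ± 0.18), which also fell in males (-1.33 ± 0.17), and Nr3c1. Nr3c1, the glucocorticoid receptor gene, had -0.54 ± 0.13 in females and -0.068 ± 0.12 in males. Without F2, F6 and F10, 1 pathway gene was called in females, in place of 25, and 12 were called with the adipocyte score as a covariate. The removal leaves F4 and F8 as the treated females. Over all 13049 genes, calls in females fell likewise, from 1748 to 130 without these mice and to 616 with the covariate.

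Before the ligases in the cascade, 2 of 6 ubiquitin and E1 genes rose in males, Ubb (0.42 ± 0.10) and Uba1 (0.30 ± 0.06), and 0 of 6 were called in females. Of 23 E2 genes, 5 rose and 1 fell in males, and 2 rose and 2 fell in females. Ube2j1, an E2 of the endoplasmic reticulum, rose in both sexes (0.77 ± 0.09 and 0.53 ± 0.09). Ube2r2 fell in females (-0.81 ± 0.12) with 0.011 ± 0.11 in males, a difference past the threshold (adjusted p = 0.00851 in edgeR), and Ube2d1 fell (-0.81 ± 0.20) and Ube2w rose (0.79 ± 0.18) in females. Ube2v1, among the 5 E2 genes counted as raised in males, had 1.43 ± 0.28, with means of 0.475 CPM and 1.29 CPM. Its means in females were 0.612 CPM with vehicle and 0.619 CPM with corticosterone, and it had 366 counts over all mice. At these levels it passed the filter only through the treated males, where it was high, so its call carries little weight. Named after their values were seen, Ube2b (0.40 ± 0.11), Ube2d3 (0.29 ± 0.08) and Ube2g2 (0.47 ± 0.12) also rose in males and Ube2h fell (-0.45 ± 0.11). Of the 20 genes of the cullin scaffold list, Cul9 and Fbxw8 rose in males and Fbxw8 in females, by log2FC values of 0.31 to 0.41. The other genes of this list, Cul1, Cul5, Skp1a and Rbx1 among them, were not called in either sex.

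On the opposing side, 3 of 15 deubiquitinase genes rose in males, and 1 rose and 1 fell in females. Usp54 rose in both sexes (1.36 ± 0.16 and 1.60 ± 0.17), Usp47 (0.64 ± 0.10) and Usp25 (0.38 ± 0.10) rose in males, Usp19 fell in females (-0.32 ± 0.08), and the proteasome-bound Usp14 had -0.12 ± 0.07 and -0.099 ± 0.076. Of 21 genes for known substrates of these ligases, 4 rose and 2 fell in males, and 1 rose and 1 fell in females. Des, the desmin gene, rose in both sexes (1.21 ± 0.14 and 0.64 ± 0.15), Actn3 (1.61 ± 0.22), Eif3f (0.67 ± 0.08) and, named after its values were seen, Dtnbp1 (0.57 ± 0.10) rose in males, Myl1 fell in both (-1.94 ± 0.27 and -1.72 ± 0.28) and Irs1 fell in males (-1.46 ± 0.30). These are transcript levels, and the proteins were not measured here.

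**Figure D5:**
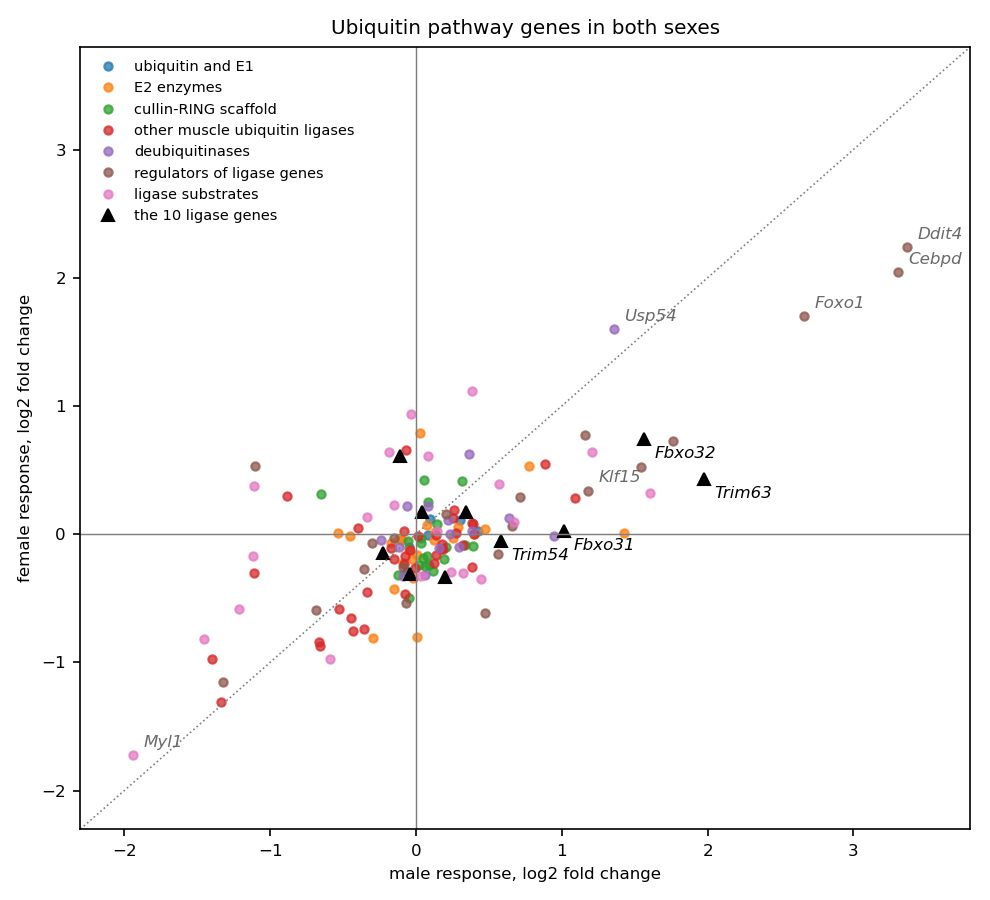
Log2 fold change of corticosterone against vehicle in males (x axis) and in females (y axis) for the 143 tested pathway genes (circles, colored by list) and the 10 ligase genes (triangles), with a dotted line where both sexes are equal. Trim63, Fbxo32, Fbxo31 and Trim54 lie to the right of 0.5 on the male axis and below the dotted line, as do Foxo1, Klf15, Ddit4 and Cebpd.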

How the data were processed

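Per the labels, poly(A)-enriched stranded libraries of quadriceps RNA were read as pairs on a DNBseq platform. The authors aligned reads to mm10 with STAR 2.7.3a, counted those on 1 gene by strand with HTSeq 0.12.4 and deposited these raw counts. Summary entries for unassigned reads (5 entries, 10.7% to 15.3% of reads) were left out. GENCODE M21 matched 55480 of 55573 IDs.

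Genes with over 20 median-of-ratios-scaled counts in at least 4 mice of a group were tested in R 4.3.3 with edgeR 4.0.16 (TMM factors 0.833 to 1.21, quasi-likelihood test, 1 model with 4 group means, Benjamini-Hochberg, threshold 0.01), a procedure tested on simulated data. CPM used TMM-scaled library sizes, log2 CPM a prior count of 1, and CPM per kb the summed exon length. The standard error is the log2FC over the square root of F. Replicates differed by more than sampling noise (chi-square per degree of freedom of at least 13.2). DESeq2 1.42.0, limma-voom (limma 3.58.1), other filters, covariates and left-out mice were alternatives. All 10 ligases are named, with up to 5 called genes of each pathway list with the largest changes and those fixed by name (Ube4b, Usp14, Trim55, Fbxo25, Klf15, Foxo1, Foxo3, Foxo4). A gene under this rule is not reported here. Members and lists were chosen with earlier results of these data known.

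Genes of other loci overlap some ligase genes on the opposite strand (at Fbxo32, Fbxo31, Trim32, Trim54 and Asb2), which counting by strand separates, and on the same strand within Nedd4, where reads shared between genes were not counted. The authors' own comparisons were not used.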

Additional observations from a re-analysis of the deposited data

Results flagged for a closer look

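The difference between the male and the female response of Fbxo31, 0.99 on the log2 scale, passed the threshold in the test of the difference itself. Fbxo31 was at 137 ± 12.6 CPM in vehicle-treated and 276 ± 32.1 CPM in corticosterone-treated males, and at 164 ± 29.8 CPM and 166 ± 25.3 CPM in the female groups.

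Fbxo30 in mouse F4, at 19.9 CPM, stood apart from the other 4 corticosterone-treated females, which lay between 12.1 CPM and 14.4 CPM. It was the 1 such value among 40 combinations of gene and group, where chance gives about 1 in 20. Without F4, the difference of the Fbxo30 responses between the sexes was 0.068 on the log2 scale, in place of -0.080.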

How the results depend on the processing

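The counts of called ligase genes in males (4 to 5) and among vehicle-treated mice (0) changed by less than 1.5 times in every alternative. In females, 1 gene was called at an adjusted p of 0.05, and 0 to 2 with 1 mouse left out. Over all genes, 3485 were called in females at 0.05, and 1004 to 2359 with 1 mouse left out. For the difference between the sexes, 3 genes were called with DESeq2 and at an adjusted p of 0.05, in place of 1, and 0 with no filter, with the adipocyte covariate, with the replicate block, without M8 and F10, without F2, F6 and F10, and without F6, F10, M8, M9 and M12. Over all genes, 90 calls became 896 with DESeq2 and 1648 at an adjusted p of 0.05. In the fits with 0 ligase genes, they became 10 (of 31922 genes tested), 1, 97, 4, 6 and 3, in the same order. With 1 mouse left out, 0 to 1 ligase genes and 1 to 893 of all genes were called. Among corticosterone-treated mice, 5 genes became 3 with the adipocyte covariate, 3 with the slow fiber covariate, 3 without M8 and F10, 2 without F2, F6 and F10, and 1 without F6, F10, M8, M9 and M12, and 3 to 5 with 1 mouse left out. Over all genes, 3043 calls became 1469, 2493, 1399, 206 and 290 in the first 5 of these fits, in the same order. Of the pathway genes, 41 were called in males (35 to 44 with 1 mouse left out) and 25 in females (14 to 31), with 7 when each sex was fitted alone, 12 with the adipocyte covariate, 1 without F2, F6 and F10, and 10 without F6, F10, M8, M9 and M12. Over all genes, 1748 were called in females in the main fit, and 561, 616, 130 and 462 in these fits in the same order. Leaving out F7, F2 or F6 alone gave 16, 14 and 14 pathway genes in females, and 1217, 1117 and 1004 of all genes. The removal of F2, F6 and F10, that of F6, F10, M8, M9 and M12, and the slow fiber covariate were chosen after seeing the data. The causes of these changes were not tested.

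Direction reversed for small, uncalled log2FC values. In males, Fbxo40 was 0.037 without M8 and F10 and 0.092 without F6, F10, M8, M9 and M12 (-0.080 to 0.033 with 1 mouse left out), and Trim32 was -0.026 to 0.12 with 1 mouse left out. In females, without F2, F6 and F10, Fbxo30 was 0.013 and Fbxo21 was -0.013, and Fbxo31 was -0.015 with no filter (-0.038 to 0.11 with 1 mouse left out). Trim54 was 0.010 with the adipocyte covariate, 0.038 without M8 and F10, 0.12 without F2, F6 and F10 and 0.11 without F6, F10, M8, M9 and M12 (-0.11 to 0.038 with 1 mouse left out). For the difference between the sexes, Fbxo40 was -0.020 and Trim32 was 0.012 without F2, F6 and F10, and Fbxo30 was -0.16 to 0.068 with 1 mouse left out.

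Male and female mice of the same number and treatment share nothing else in the labels. The correlation of their deviations from the group means ranged from 0.085 to 0.477 over the vehicle numbers and from -0.377 to 0.242 over the corticosterone numbers. What the positive values of the vehicle numbers come from was not tested. The labels name no pairs, so the main fit did not use the numbers. With the replicate block, which could be fitted for comparisons between the sexes, the response difference of Fbxo31 was 1.02 (adjusted p = 0.0114 in edgeR), and among corticosterone-treated mice 5 ligase genes were called, as without it.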

Other observations

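Marker lists of other cell types and states were followed in the same test. Of 6 fibroblast markers, 4 were lower in treated males and 2 in treated females. Of 5 erythrocyte markers, 4 were higher in both sexes. Among 8 adipocyte markers, 2 were higher in treated females and 0 in males. Of 8 markers of denervated muscle, 7 were tested, and 3 were higher in males and 1 in females. Of 8 skeletal muscle markers, 2 rose and 1 fell in males and 1 fell in females. Among 5 endothelial markers, 1 rose and 1 fell in males. None of the slow fiber, hepatocyte, Schwann cell and macrophage markers was called in either sex.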
